A study of Mus musculus with 8 samples.

Results

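The genes described here are 59 genes of the cell cycle, chosen by name: regulators and enzymes of G1 and S phase, in which a cell commits to division and copies its DNA, and of mitosis, in which the copies are separated. Of the 59, 58 were measured, each by the probe set with the highest mean among those whose only gene symbol is that of the member, out of 19937 genes represented in the same way. The members fall into 23 S phase genes, 33 measured mitosis genes and 2 D-type cyclins; Ccnb1 had no probe set naming it alone and was not analysed here. The study asked how an early pregnancy alters gene expression in mouse mammary cells. The arrays analysed here cover total mammary cell suspensions of FVB/NHanHsd mice, 4 of parous and 4 of age-matched virgin control animals. Each array holds 1 pool of the 4th mammary glands of 5 mice. The study also deposited arrays of sorted mammary cell subpopulations, which were not analysed here. The parous animals were mated when 42 days old and went through pregnancy and 21 days of lactation, and the labels give 28 days of involution after it, whereas the study's methods give a longer interval. The suspensions were not sorted: lymph nodes, fat cells and red blood cells had been removed and fibroblasts reduced by attachment, and the other cells of the gland were measured together. In such bulk samples, fewer dividing cells and less of an RNA per dividing cell cannot be told apart, and the sources used here do not give the estrous stage of the mice in each pool. The study's methods state that at least 5 mice were pooled per harvest as a control for the estrous cycle.

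Division genes are switched on in waves. At the border of G1 and S phase, D and E cyclins with their kinases release E2F transcription factors from the retinoblastoma protein family, and E2F activates the genes for loading the replicative helicase, making deoxynucleotides and copying DNA. In G2 and mitosis, a complex containing B-MYB, and FOXM1 with it, activates the genes of chromosome condensation, spindle assembly and the spindle checkpoint, whereas in resting cells the DREAM complex keeps many of the same genes silent. In the mammary gland, cell division recurs with each estrous cycle and is widespread during pregnancy, and Mki67, which encodes the Ki-67 protein of the chromosome surface, is the usual marker of dividing cells.

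Promoter sequence was not used to choose the members and is shown here because each wave has its own promoter elements. In the RefSeq promoter windows of build GRCm38.p6, from 250 bases before to 50 bases after each gene start, 20 of the 23 S phase genes and 28 of the 33 mitosis genes were matched. The CHR element was searched as TTTGAA on both strands. It was present in 64.3% of the matched mitosis genes and in 15% of the matched S phase genes, against 20.2% of all 27025 genes with a window. An E2F site, searched on both strands as TTTCCCGC, TTTCGCGC, TTTGCCGC or TTTGGCGC, was present in 7.14% of the mitosis genes and 40% of the S phase genes, against 2.61% of all genes. The CCAAT box, searched as CCAAT on both strands, was present in 71.4% of the mitosis genes, 65% of the S phase genes and 41.1% of all genes, and it stood together with the CHR element in 60.7% of the mitosis genes, 15% of the S phase genes and 7.97% of all genes. The searched motifs have different letters, and the E2F letters can overlap one another on opposite strands. These matches are letters in a window and were not tested as binding sites. The stretches below, all upstream of the start and written 5′ to 3′ on the strand of the gene, show both types. They were picked as examples without a set rule, and match positions were recorded only for them. In the 5 mitosis promoters the capitals mark the CHR letters or their reverse complement, which begin 15 to 30 bases before the start in each and, in Cdk1, also 71 bases before it.
Cdk1, the mitotic kinase, chr10:69352913-69353012, minus strand: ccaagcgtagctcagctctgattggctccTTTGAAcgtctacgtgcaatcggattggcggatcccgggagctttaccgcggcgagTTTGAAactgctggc
Kif11, a spindle motor, chr19:37376282-37376381, plus strand: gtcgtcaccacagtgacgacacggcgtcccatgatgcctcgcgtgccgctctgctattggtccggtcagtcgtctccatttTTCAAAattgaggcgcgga
Cdc20, an activator of the anaphase-promoting complex, chr4:118437344-118437443, minus strand: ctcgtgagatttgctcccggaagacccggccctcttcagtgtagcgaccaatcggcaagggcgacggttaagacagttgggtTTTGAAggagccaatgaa
Top2a, the topoisomerase that untangles chromosomes, chr11:99024190-99024289, minus strand: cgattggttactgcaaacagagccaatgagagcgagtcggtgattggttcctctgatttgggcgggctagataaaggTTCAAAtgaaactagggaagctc
Prc1, a crosslinker of spindle microtubules, chr7:80294376-80294475, plus strand: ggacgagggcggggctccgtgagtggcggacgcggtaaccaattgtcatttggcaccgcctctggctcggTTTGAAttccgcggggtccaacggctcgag
In the 3 S phase promoters the capitals mark E2F letters, which in Mcm5 and Mcm6 form overlapping matches on both strands, beginning 153 and 110 bases before the start.
Mcm5, a helicase subunit, chr8:75109309-75109408, plus strand: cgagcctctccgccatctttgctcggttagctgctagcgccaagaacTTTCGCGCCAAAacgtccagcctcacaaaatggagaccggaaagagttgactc
Mcm6, a helicase subunit, chr1:128359736-128359835, minus strand: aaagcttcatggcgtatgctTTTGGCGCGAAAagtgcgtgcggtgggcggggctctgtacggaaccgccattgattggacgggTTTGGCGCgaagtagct
Uhrf1, needed to copy DNA methylation to the new strand, chr17:56304113-56304212, plus strand: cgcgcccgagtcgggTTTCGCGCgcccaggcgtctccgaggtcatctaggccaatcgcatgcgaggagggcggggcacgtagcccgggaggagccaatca
Among the matched mitosis genes, the median log2 fold change, parous minus virgin, was -1.20 over the 18 with the CHR element and -1.09 over the 10 without it. Among the matched S phase genes it was -0.42 over the 8 with an E2F site and -0.60 over the 12 without one, the opposite order. Neither difference was tested.

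The deposited values are on the log2 scale, with 34760 probe sets per array and array medians of 6.29 to 6.43, and Pearson correlations between arrays across probe sets ranged from 0.976 to 0.993. The epithelial markers Krt8 and Krt14 lay above the array medians in every array. The luminal keratin gene Krt8 had log2 values of 13.04 to 13.14 in parous arrays and 13.18 to 13.37 in virgin arrays, and the basal keratin gene Krt14 had 10.57 to 10.98 in parous arrays and 11.24 to 11.92 in virgin arrays. Virgin arrays 2 and 4 stood apart from the other 6 arrays on the genes described here, as set out in the following paragraphs, so the main counts and medians are also given without them. As these arrays were identified from the values themselves, the results without them are a description.

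Across the members, parous arrays had lower mean values than virgin arrays in 56 of 58 genes (96.6%), against 49.3% of all genes, with a median log2 fold change of -0.87, against 0.00 over all genes. No member passed the criteria of the study's methods (more than 1.5-fold on the linear scale, with a mean linear value over 4 and an adjusted p under 0.05) in either direction; 0.221% of all genes passed them as lower in parous arrays and 0.181% as higher. The smallest adjusted p of a member, from limma over all probe sets, was 0.110, for Mad2l1. At an unadjusted p under 0.05, 33 of 58 members were lower in parous arrays and 0 higher, against 7.5% of all genes lower. In 21 of 58 members (36.2%) all parous arrays lay below all virgin arrays, against 4.95% of all genes. The mean was more than 1.5-fold lower in parous arrays in 41 members and more than 2-fold lower in 26. Of all 19937 genes, 448 were more than 1.5-fold lower and 164 more than 2-fold lower. The members thus had a common direction, with virgin arrays that lay far apart from each other.

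The heat map of all members by array shows where that spread lay. Virgin array 4 had the highest value of the 8 arrays in 54 of 58 members (93.1%), against 21.5% of all genes. Virgin arrays 2 and 4 held the top 2 places in 54 members as well (93.1%), against 17.2% of all genes. Virgin array 4 also stood out beyond the members: it was the lowest array in 4160 of all 19937 genes. It had the highest array median, 6.43. Its limma array weight, lower for arrays that vary more, was 0.42, against 0.75 to 1.90 in the other arrays. With array weights the median log2 fold change of the members was -0.74. After each gene was centred on its own average, the mean of the members was -0.28, -0.38, -0.63 and -0.48 on the log2 scale in parous arrays 1 to 4, against -0.20, 0.86, -0.19 and 1.31 in virgin arrays 1 to 4. Virgin arrays 1 and 3 were thus close to the parous arrays, whereas virgin arrays 2 and 4 were far above them. Among the parous arrays, the lowest value was in parous array 3 for 38 members, against 4280 of all 19937 genes. The highest was in parous array 1 for 33 members, against 5021 of all genes.

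**Figure D1:**
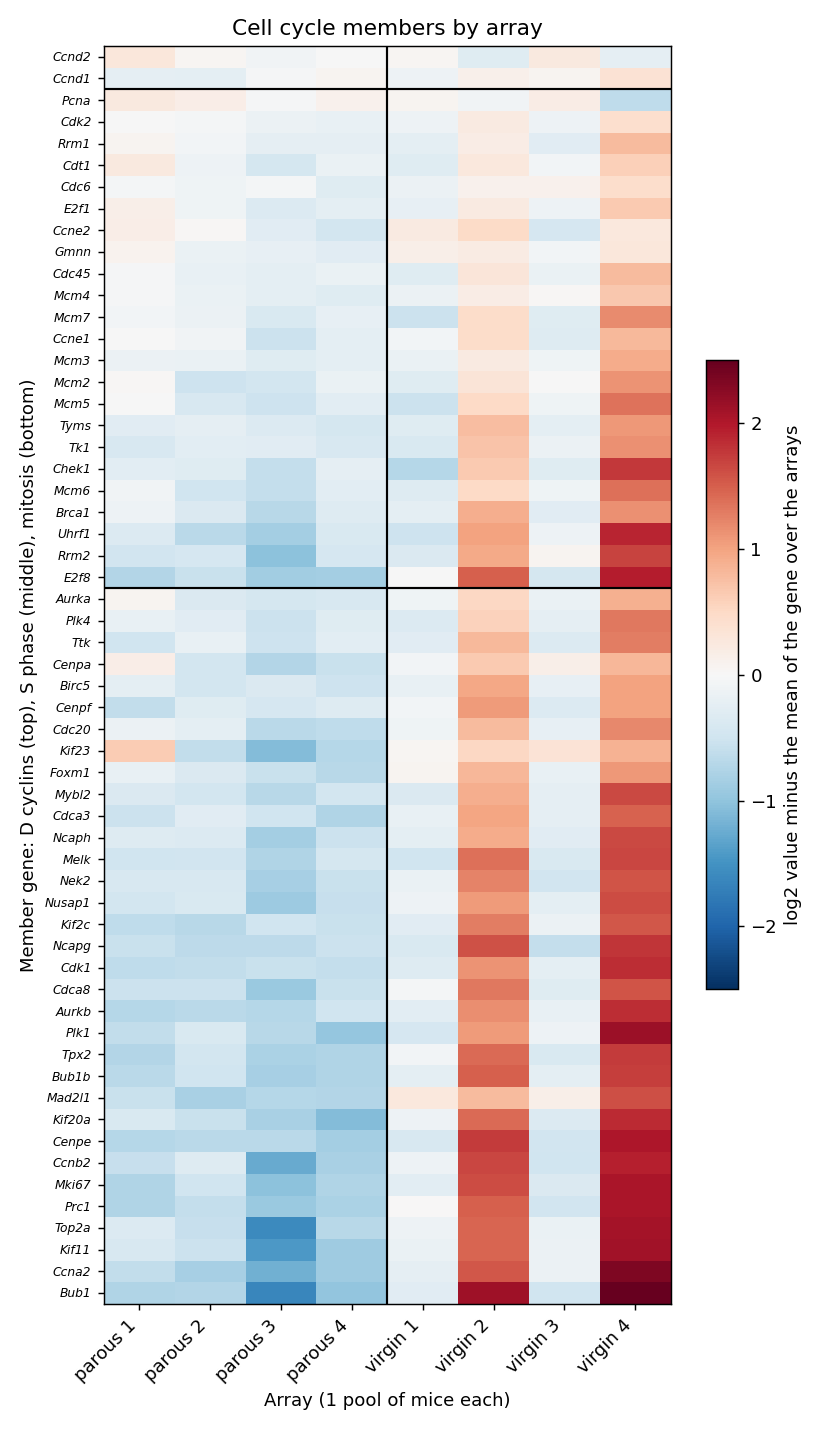
Log2 value of each of the 58 measured members (rows) in each array (columns), minus the mean of the gene over the 8 arrays, with parous arrays left of the black line and virgin arrays right of it. Virgin arrays 2 and 4 are the top pair in 54 members, against 17.2% of all genes. Parous array 3 is the lowest parous array in 38 members, against 4280 of all 19937 genes.

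The standard deviation (SD) of a member over the 4 arrays of a group had a median of 0.17 in parous and 0.79 in virgin arrays, against 0.13 in parous and 0.15 in virgin arrays over all genes. The virgin SD exceeded the parous SD in 56 of 58 members (96.6%), against 58.7% of all genes. In 0 members did the parous SD exceed 1, whereas the virgin SD did so in 20 (34.5%), against 0.798% of all genes. The median ratio of the virgin to the parous SD was 4.16 over the members and 1.18 over all genes. The exceptions were Gmnn, with SDs of 0.16 in parous and 0.15 in virgin arrays, and Kif23, with 0.75 in parous and 0.34 in virgin arrays. Bub1 had the largest virgin SD of the members, 1.65, against 0.42 among its parous arrays.

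**Figure D2:**
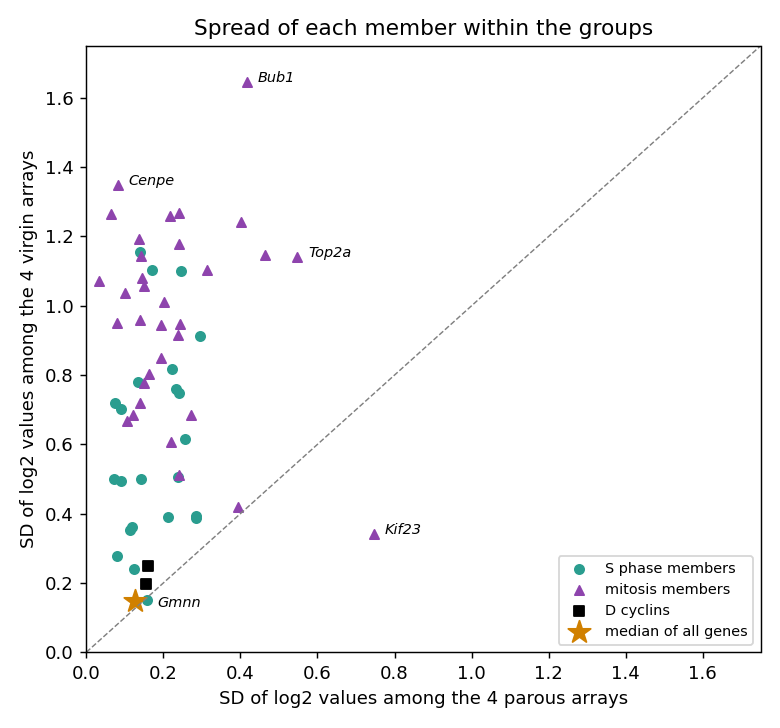
SD of the log2 values of each member among the 4 parous arrays (x axis) and among the 4 virgin arrays (y axis), with the median of all genes as a star and equality as a dashed line. Of 58 members, 56 lie above the line, and Kif23 lies farthest below it.

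The mitosis genes had larger differences than the S phase genes. All 33 had a log2 fold change below 0, with a median of -1.20 and a range of -2.04 to -0.56; 32 differed by more than 1.5-fold, 23 by more than 2-fold and 29 had an unadjusted p under 0.05 (87.9%, against 7.5% of all genes), while 0 passed the criteria. In 19 of the 33 (57.6%, against 4.95% of all genes) the groups did not overlap. The 23 S phase genes had a median of -0.43 and a range of -1.50 to 0.24. Of these, 22 lay below 0, 9 differed by more than 1.5-fold and 3 by more than 2-fold. Of all 19937 genes, 448 were more than 1.5-fold lower in parous arrays and 164 more than 2-fold lower. Of the S phase genes, 4 had an unadjusted p under 0.05 (17.4%, against 7.5% of all genes) and 2 did not overlap between the groups (8.7%, against 4.95% of all genes). The median SD was 0.20 in parous and 1.01 in virgin arrays for the mitosis genes, and 0.16 in parous and 0.51 in virgin arrays for the S phase genes. The difference between the lists was not tested.

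The G1 cyclins and their kinase had the median closest to 0 of the 12 groups by role, -0.21. Ccnd1, which encodes cyclin D1, the growth-factor sensor that binds CDK4 and CDK6, had log2 values of 10.97, 10.95, 11.18 and 11.27 in parous arrays 1 to 4, against 11.08, 11.32, 11.27 and 11.56 in virgin arrays 1 to 4. The groups overlapped, with a log2 fold change of -0.21 (SE 0.12, adjusted p = 0.568); here and below, SE is the standard error of the log2 fold change from limma and p-values are adjusted over all probe sets. Ccnd2, encoding the related cyclin D2, had log2 values of 10.00, 9.75, 9.63 and 9.71 in parous arrays and 9.76, 9.41, 9.95 and 9.49 in virgin arrays. Its lowest values were those of virgin arrays 2 and 4, the reverse of most members, and its log2 fold change was 0.12 (SE 0.14, adjusted p = 0.818). Ccne1 encodes cyclin E1, which drives entry into S phase with CDK2. It had log2 values of 7.88, 7.81, 7.35 and 7.64 in parous arrays and 7.82, 8.34, 7.57 and 8.69 in virgin arrays, and a log2 fold change of -0.43 (SE 0.24, adjusted p = 0.559). Virgin arrays 2 and 4 were the highest for Ccne1, and virgin array 3 lay within the parous range. Ccne2 and Cdk2, the partner kinase, had log2 fold changes of -0.27 and -0.19.

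Of the 11 genes of origin licensing and the replication fork, 10 had a log2 fold change below 0, with a median of -0.37, 1 had an unadjusted p under 0.05 (9.09%, against 7.5% of all genes) and in 0 were the groups apart. Mcm6, a subunit of the helicase that unwinds DNA ahead of the fork, had the largest difference. Its log2 values were 8.64, 8.22, 8.13 and 8.45 in parous arrays and 8.40, 9.22, 8.61 and 10.10 in virgin arrays, with a log2 fold change of -0.72 (SE 0.34, adjusted p = 0.472). Virgin arrays 1 and 3 lay inside the parous range for this gene, and without virgin arrays 2 and 4 the log2 fold change was -0.15. The other 5 helicase subunits, Mcm2, Mcm3, Mcm4, Mcm5 and Mcm7, had log2 fold changes of -0.56, -0.44, -0.37, -0.60 and -0.40, and in each of them virgin array 4 was the highest of the 8 arrays. The log2 fold changes of the licensing factors Cdc6 and Cdt1 were -0.26 and -0.25, and that of the helicase activator Cdc45 was -0.31. Gmnn, encoding geminin, the inhibitor of Cdt1, had a log2 fold change of -0.29 and was the gene of this group with an unadjusted p under 0.05 (adjusted p = 0.368, limma).

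Pcna, which encodes the sliding clamp of DNA polymerases, was the S phase gene with a log2 fold change above 0. Its log2 values were 12.47, 12.40, 12.19 and 12.32 in parous arrays, against 12.29, 12.14, 12.40 and 11.59 in virgin arrays, with a log2 fold change of 0.24 (SE 0.17, adjusted p = 0.663), and virgin array 4 was the lowest of all 8 arrays. Pcna had 2 probe sets. The one described, chosen for its higher mean, stands by number between probe sets of Rps7 on chromosome 12 and Scgb2a2 on chromosome 19, whereas Pcna is on chromosome 2. The other, between Tmem230 and Prokr2 of chromosome 2, had a log2 fold change of 0.05 (SE 0.07, adjusted p = 0.871) and an SD of 0.07 in each group. Neither Pcna probe set therefore had the pattern of the helicase genes.

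The genes of deoxynucleotide synthesis included Rrm2, the cell cycle-dependent subunit of ribonucleotide reductase. Rrm2 had log2 values of 7.03, 7.08, 6.48 and 7.08 in parous arrays and 7.14, 8.44, 7.56 and 9.18 in virgin arrays. The groups did not overlap, by 0.05 on the log2 scale, and the log2 fold change was -1.16 (SE 0.41, adjusted p = 0.328). Rrm1, the constant subunit of the same enzyme, and Tyms, which makes thymidylate, had log2 fold changes of -0.22 and -0.65. Tk1, thymidine kinase, had a log2 fold change of -0.66 on the probe set with the higher mean, which stands by number among genes of chromosome 8 although Tk1 is on chromosome 11, and -0.97 on the probe set that stands between Tmc6 and Tha1 of chromosome 11 (adjusted p = 0.458).

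Among the members for replication stress, repair and copying of chromatin marks, Uhrf1 had log2 values of 7.01, 6.68, 6.51 and 6.98 in parous arrays and 6.84, 8.36, 7.23 and 9.26 in virgin arrays, a log2 fold change of -1.13 (SE 0.48, adjusted p = 0.421). Virgin array 1 lay within the parous range for Uhrf1, and virgin array 3 was just above it. Chek1, the kinase of the replication checkpoint, had a log2 fold change of -0.70, with virgin array 1 the lowest of all 8 arrays at 6.27 and virgin array 4 the highest at 8.75. Brca1, a repair gene known from hereditary breast cancer, had a log2 fold change of -0.76.

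**Figure D3:**
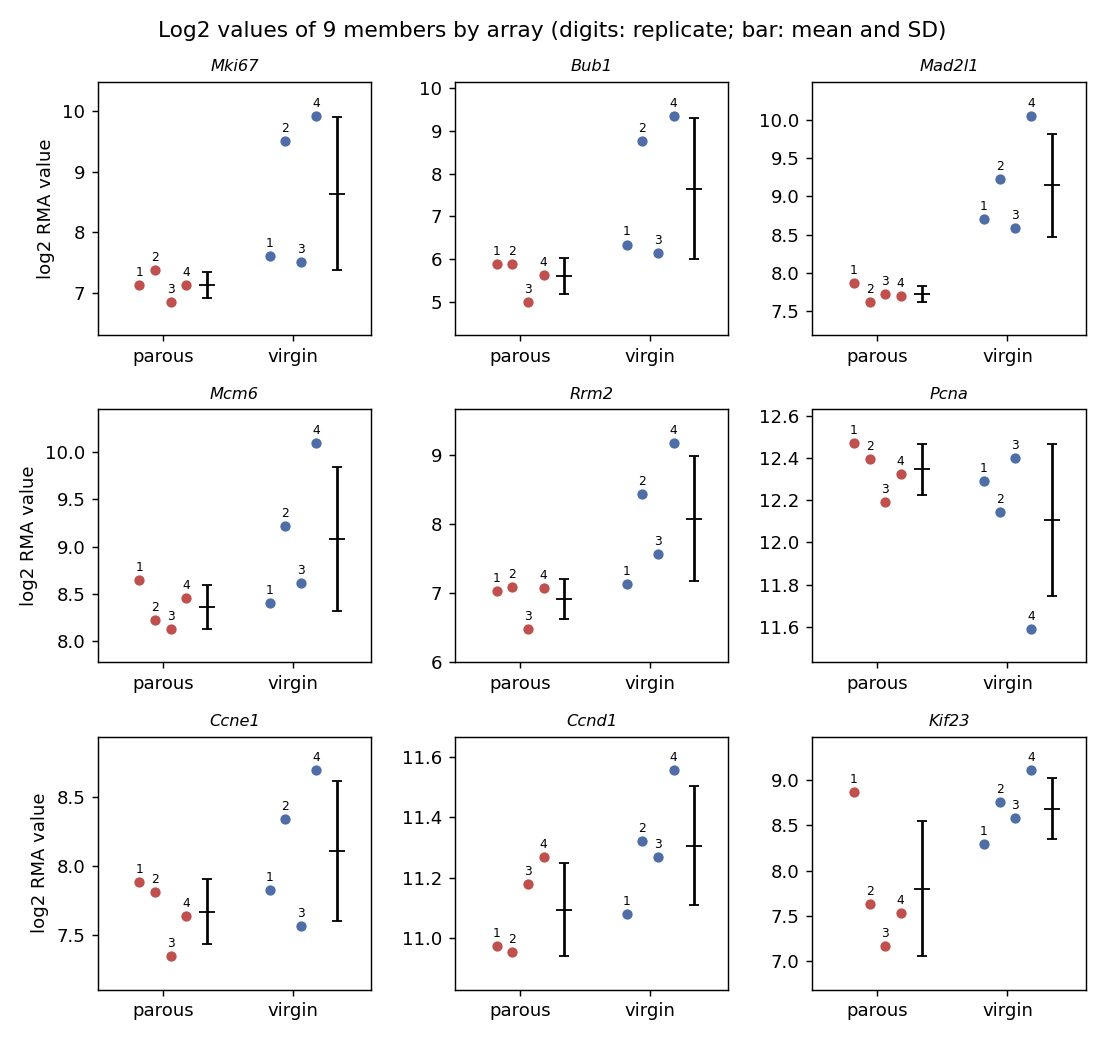
Log2 RMA values of 9 members, with each point 1 array labelled by its replicate number, parous left and virgin right, and the mean with its SD (n = 4 arrays) beside each group; the y axes differ between panels. For Mki67, Bub1, Mad2l1 and Rrm2 every parous array lies below every virgin array, while for Pcna virgin array 4 is the lowest array and for Kif23 parous array 1 is far above the other parous arrays.

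Of the 4 transcription factors, E2f8, an atypical E2F that represses E2F targets late in S phase, differed most. It had log2 values of 5.85, 6.02, 5.71 and 5.74 in parous arrays and 6.57, 8.07, 6.15 and 8.54 in virgin arrays, with no overlap and a log2 fold change of -1.50 (SE 0.49, adjusted p = 0.298). E2f1, an activator of S phase genes, had a log2 fold change of -0.27. Foxm1 and Mybl2, the activators of the mitotic wave (Mybl2 encodes B-MYB), had log2 fold changes of -0.89 and -0.99. For both, the lowest virgin array and the highest parous array differed by 0.00 on the log2 scale.

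Ccna2, Ccnb2 and Cdk1 encode cyclin A2, cyclin B2 and the kinase they activate. Ccna2 had log2 values of 7.09, 6.87, 6.50 and 6.82 in parous arrays and 7.48, 9.27, 7.56 and 10.04 in virgin arrays. All parous arrays were below all virgin arrays, with a log2 fold change of -1.77 (SE 0.55, adjusted p = 0.275). Cdk1 ranged from 6.97 to 7.05 in parous arrays, where its SD of 0.03 was the smallest parous SD of any member, against 7.27 to 9.46 in virgin arrays. Its log2 fold change was -1.20, and that of Ccnb2 was -1.49. Virgin arrays 1 and 3 were above the parous arrays by a small margin for Ccna2 and Cdk1, and virgin arrays 2 and 4 by a wide one.

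The 7 centromere and spindle checkpoint genes, whose products hold back anaphase until chromosomes are attached, had a median log2 fold change of -1.37. Bub1, a checkpoint kinase, had the largest difference of all members. Its log2 values were 5.88, 5.89, 5.00 and 5.63 in parous arrays, against 6.34, 8.75, 6.13 and 9.35 in virgin arrays. The lowest virgin array was 0.24 above the highest parous array, the 4 virgin arrays spread over 3.22 on the log2 scale, and the log2 fold change was -2.04 (SE 0.72, adjusted p = 0.329). Mad2l1, which encodes the checkpoint protein MAD2 and was chosen for display after its values were seen, had log2 values of 7.87, 7.62, 7.72 and 7.70 in parous arrays and 8.70, 9.23, 8.59 and 10.05 in virgin arrays. It had the widest gap between the groups of any member, 0.72, the smallest SE relative to its fold change and a log2 fold change of -1.41 (SE 0.29, adjusted p = 0.110). Without virgin array 4, Mad2l1 passed the criteria (adjusted p = 0.039, limma). Bub1b, encoding the checkpoint protein BUBR1, had a log2 fold change of -1.37, the checkpoint kinase gene Ttk had -0.74, and the centromere genes Cenpa, Cenpe and Cenpf had -0.79, -1.45 and -0.83.

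Of the 7 genes for spindle motors and microtubule proteins, 6 had no overlap between the groups (85.7%, against 4.95% of all genes), and all 7 had an unadjusted p under 0.05 (against 7.5% of all genes). Kif11, the motor that pushes spindle poles apart, had log2 values of 7.03, 6.89, 5.99 and 6.53 in parous arrays and 7.27, 8.88, 7.28 and 9.53 in virgin arrays, a log2 fold change of -1.63 (SE 0.52, adjusted p = 0.292). Parous array 3 was the lowest and virgin array 4 the highest. The cytokinesis genes Prc1 and Kif20a had log2 fold changes of -1.53 and -1.41, and Tpx2, Nusap1 and Kif2c, which nucleate, bundle or depolymerise spindle microtubules, had -1.37, -1.17 and -1.19. The exception was Kif23, a partner of Prc1 in cytokinesis, with log2 values of 8.87, 7.63, 7.16 and 7.52 in parous arrays and 8.29, 8.76, 8.58 and 9.11 in virgin arrays. Its value in parous array 1 exceeded that of every array but virgin array 4, and its log2 fold change was -0.89 (SE 0.35, adjusted p = 0.386).

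Aurkb, the kinase of the chromosomal passenger complex, which corrects faulty attachments of chromosomes, had log2 values of 7.34, 7.38, 7.34 and 7.55 in parous arrays and 7.79, 9.22, 7.87 and 9.90 in virgin arrays. The groups did not overlap, and the log2 fold change was -1.29 (SE 0.44, adjusted p = 0.317). Its partners Cdca8 (borealin) and Birc5 (survivin) had log2 fold changes of -1.28 and -0.79, again without overlap. Of the other mitotic kinases, Plk1, which acts at centrosomes and kinetochores, had log2 values of 6.59, 6.83, 6.51 and 6.24 in parous arrays and 6.79, 8.28, 7.08 and 9.35 in virgin arrays. Parous array 2 was just above virgin array 1 for Plk1, and the log2 fold change was -1.33 (SE 0.51, adjusted p = 0.370). Nek2 and Aurka, kinases of the centrosome, had log2 fold changes of -1.09 and -0.56, Plk4, the kinase of centriole duplication, had -0.66, and Melk had -1.09. In 0 of these 5 kinase genes were the groups fully apart, against 4.95% of all genes.

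Mki67 had log2 values of 7.13, 7.38, 6.85 and 7.13 in parous arrays and 7.61, 9.52, 7.51 and 9.93 in virgin arrays. The lowest virgin array was 0.13 above the highest parous array, and the log2 fold change was -1.52 (SE 0.54, adjusted p = 0.336). Top2a had log2 values of 6.81, 6.58, 5.56 and 6.46 in parous arrays and 7.02, 8.61, 6.99 and 9.25 in virgin arrays, a log2 fold change of -1.61 (SE 0.53, adjusted p = 0.305), with parous array 3 lowest. A second, dim probe set of Top2a (mean log2 value 2.93) had a log2 fold change of 0.02. Ncapg and Ncaph, subunits of condensin, the complex that compacts mitotic chromosomes, had log2 fold changes of -1.20 and -1.03. Cdca3, an adaptor for destruction of the mitotic inhibitor WEE1, had log2 values of 6.38, 6.63, 6.41 and 6.16 in parous arrays and 6.72, 7.88, 6.69 and 8.37 in virgin arrays, with a narrow gap between the groups and a log2 fold change of -1.02 (SE 0.37, adjusted p = 0.346). The log2 fold change of Cdc20 was -0.84.

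With virgin arrays 2 and 4 left out, the parous arrays were set against virgin arrays 1 and 3 alone. The median log2 fold change moved to -0.21 over the members, -0.39 over the mitosis genes and -0.05 over the S phase genes. All 33 mitosis genes remained below 0, as did 15 of the 23 S phase genes, and the share below 0 was 86.2% over the members and 49% over all genes. At an unadjusted p under 0.05, 15 members were lower in parous arrays, 14 of them mitosis genes, and 0 higher, against 3.94% of all genes lower. Mad2l1 was the only member to pass the criteria (log2 fold change -0.91, adjusted p = 0.033, limma). Virgin arrays 2 and 4 were picked for their high values in the members, so leaving them out also narrowed the spread of the members. These p-values and counts therefore describe the remaining arrays and are not an independent test. Both virgin arrays 1 and 3 lay above all parous arrays in 19 of 33 mitosis genes (57.6%) and in 2 of 23 S phase genes (8.7%), against 8.74% of all genes. They are the same genes whose groups did not overlap with all arrays, so the count adds no further result. The mitosis genes thus had a smaller difference of one direction without these arrays, whereas the S phase genes had a median near 0. Relative to virgin arrays 1 and 3, the median elevation of the mitosis genes was 1.42 in virgin array 2 and 1.94 in virgin array 4, and that of the S phase genes was 0.58 in virgin array 2 and 1.06 in virgin array 4.

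**Figure D4:**
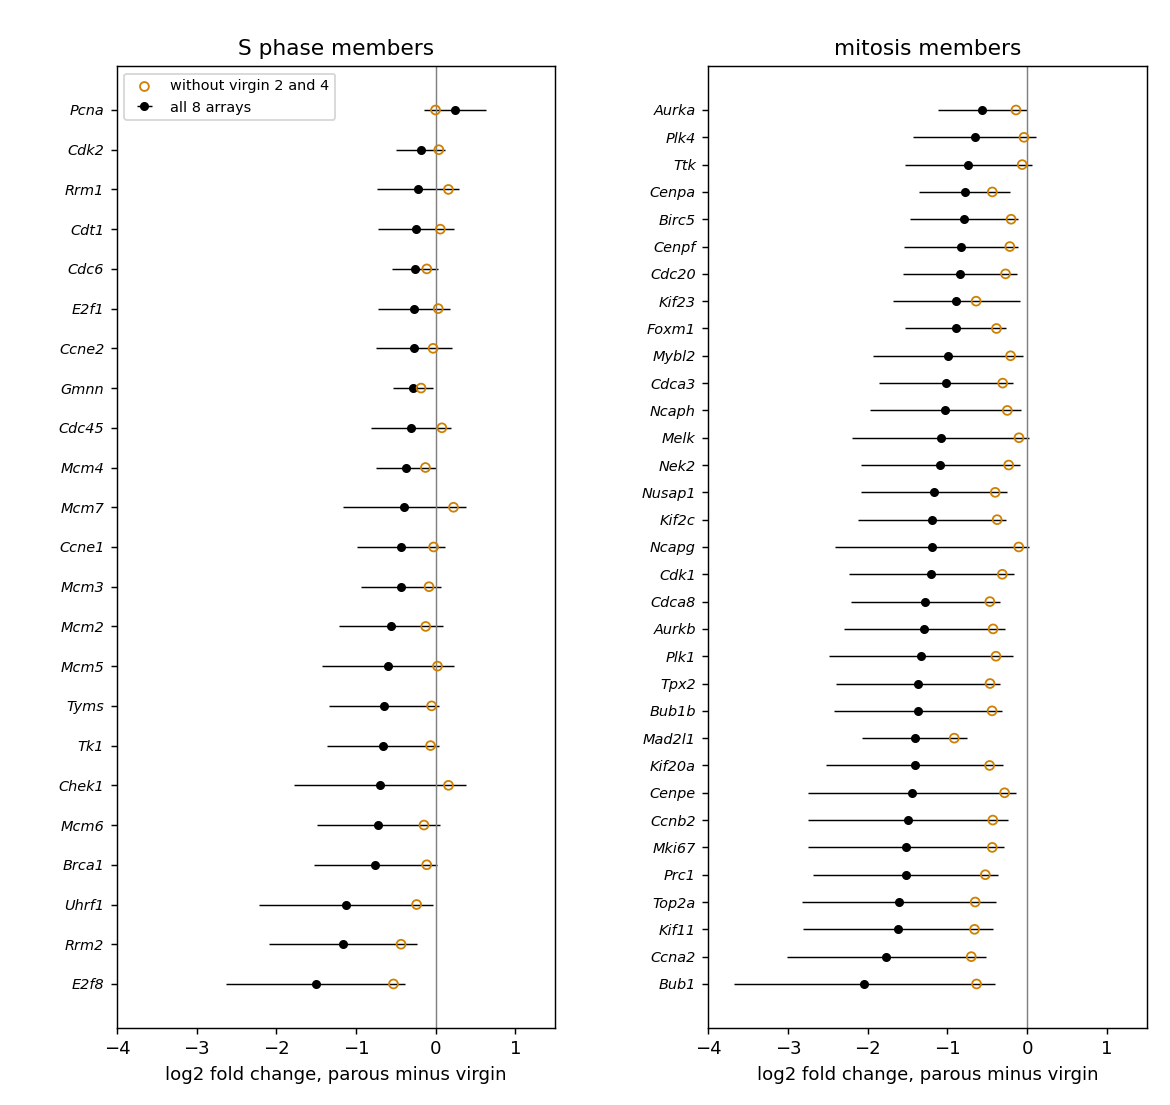
Log2 fold change, parous minus virgin, of the 23 S phase genes (left) and the 33 mitosis genes (right), from all 8 arrays (black, with 95% confidence interval from limma) and without virgin arrays 2 and 4 (open circles). The open circles have a median of -0.05 for the S phase genes and -0.39 for the mitosis genes.

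Further genes of the same pathways, listed by function, were examined beside the members. Of 45 other replication genes, 43 were measured; 41 had a log2 fold change below 0, with a median of -0.37, 0 passed the criteria, and 3 were lower at an unadjusted p under 0.05 (6.98%), which is no more than the 7.5% of all genes. Pole, the leading-strand polymerase, and Chaf1b, a subunit of chromatin assembly factor 1, differed most, with log2 fold changes of -1.10 and -0.79 (adjusted p = 0.442 and 0.449). All 55 other mitosis genes were measured; 54 were below 0, with a median of -0.91, 30 had an unadjusted p under 0.05 (54.5%, against 7.5% of all genes), 15 did not overlap between the groups (27.3%, against 4.95%) and 0 passed. Anln, encoding anillin of the cleavage furrow, had log2 values of 6.27, 6.69, 5.76 and 6.13 in parous arrays and 7.55, 9.45, 6.83 and 9.64 in virgin arrays, a log2 fold change of -2.15 (SE 0.61, adjusted p = 0.232) and of -0.98 without virgin arrays 2 and 4. Knl1, the kinetochore scaffold for checkpoint proteins, had a log2 fold change of -1.70 (SE 0.54, adjusted p = 0.286). Without virgin arrays 2 and 4 the medians were -0.01 for the other replication genes, 23 of 43 below 0, and -0.15 for the other mitosis genes, 47 of 55 below 0.

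The genes that hold cells out of the cycle had a median log2 fold change near 0, with some genes higher in parous arrays. Of 10 genes for CDK inhibitors and pocket proteins, 9 were measured, with a median log2 fold change of 0.03; 0 passed the criteria, and at an unadjusted p under 0.05 2 were higher and 0 lower in parous arrays, against 6.54% of all genes higher and 7.5% lower. Rb1, the retinoblastoma gene, had log2 values of 11.70, 11.62, 11.63 and 11.57 in parous arrays, against 11.18, 10.75, 11.25 and 10.44 in virgin arrays. All parous arrays lay above all virgin arrays for Rb1. This held for 2 of the 9 measured genes, Rb1 among them, against 919 of all 19937 genes. Virgin arrays 2 and 4 were the lowest for Rb1. Its log2 fold change was 0.73 (SE 0.17, adjusted p = 0.157, limma), and 0.42 without those arrays. Rbl2, encoding the related pocket protein p130 of the DREAM complex, had a log2 fold change of 0.34 (SE 0.14, adjusted p = 0.414). The 10 core genes of the DREAM and B-MYB complexes had a median of -0.14, with the largest values in Tfdp1 and Tfdp2 (DP proteins, the partners of E2F), log2 fold changes of -0.56 and -0.30. The 11 other G1 regulators had a median of -0.11, with the largest values in E2f3 and Skp2 (an adaptor for destruction of the CDK inhibitor p27), log2 fold changes of -0.59 and -0.42. None of these 4 genes passed the criteria (adjusted p = 0.469, 0.476, 0.469 and 0.405, limma).

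Markers of some other cells in the suspensions also differed in virgin arrays 2 and 4. The mean centred level of 8 measured T and NK cell markers (of 10) ranged from -0.36 to 0.68 in parous arrays, and was -0.04, -0.64, 0.76 and -0.56 in virgin arrays 1 to 4. That of 7 measured B and plasma cell markers (of 8) ranged from -0.04 to 1.01 in parous arrays, and was -0.10, -1.05, 0.89 and -0.97 in virgin arrays 1 to 4. Virgin arrays 2 and 4 thus had the highest cell cycle levels and the lowest lymphocyte marker levels. The 7 endothelial markers ranged from -0.16 to 0.33 in parous arrays and from -0.65 to 0.32 in virgin arrays, with virgin array 4 lowest. The 8 pan-luminal markers ranged from -0.24 to -0.06 in parous arrays and from 0.00 to 0.28 in virgin arrays, and the 10 basal and myoepithelial markers from -0.29 to -0.09 in parous arrays and from 0.02 to 0.30 in virgin arrays. The 5 measured hormone-sensing luminal markers (of 7) ranged from -0.74 to -0.25 in parous arrays and from 0.12 to 0.69 in virgin arrays, with virgin array 4 the lowest virgin array. The 6 luminal progenitor markers ranged from 0.07 to 0.13 in parous arrays, and were 0.06, -0.10, -0.002 and -0.36 in virgin arrays 1 to 4. The 7 fibroblast markers ranged from -0.17 to 0.57 in parous arrays, and were -0.48 in virgin array 2 and 0.12 in virgin array 4. Macrophage and dendritic cell, adipocyte and red blood cell markers ranged from -0.23 to 0.36 in parous arrays and from -0.26 to 0.17 in virgin arrays. The part of these cell types in the values of the members was not tested.

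**Figure D5:**
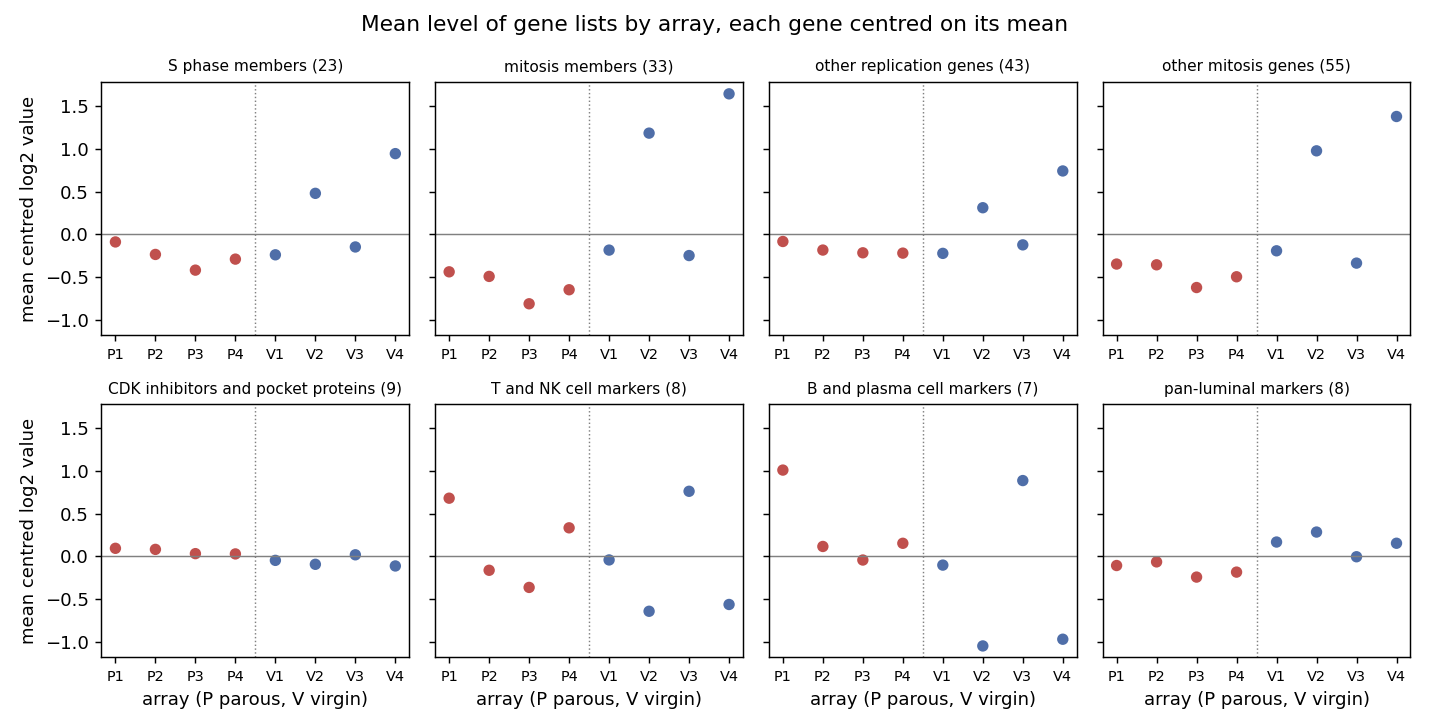
Mean log2 level of 8 gene lists in each array, every gene centred on its mean over the 8 arrays, with the number of measured genes in brackets, parous arrays (P1 to P4) left of the dotted line and virgin arrays (V1 to V4) right of it. The mitosis genes are highest in virgin arrays 2 (1.18) and 4 (1.64), where the B and plasma cell markers are lowest (-1.05 and -0.97).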

How the data were processed

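Arrays of 4 parous and 4 virgin pools were analysed, grouped by their labels. The authors deposited log2 values computed by rma() in affy (background correction, quantile normalization and summary to 1 value per probe set), from RNA amplified with the Ambion WT Expression kit on Affymetrix Mouse Gene 1.0 ST arrays; the sources used here give no affy version. RMA values carry no detection call, and values of dim genes are compressed, so folds there are understated: 20 members in parous and 9 in virgin arrays had a mean below every array's median. The number of arrays limits the precision, and no level of a gene was set against that of another.

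Of 34760 probe sets, 21640 named 1 gene, 1321 several and 11799 none here. Probe sets were fitted together in R 4.3.3 with limma 3.58.1 (lmFit, eBayes, parous minus virgin, 2-sided, no covariate), with Benjamini-Hochberg adjustment over all of them. A probe set was counted if it had a mean log2 value over 2, changed by more than 1.5-fold and had an adjusted p under 0.05. Pools are labelled biological replicates. Values of every array are given for Mki67, Top2a, Ccnd1, Ccnd2, Pcna, the member of each role group with the largest change and, of the pathway lists, up to 2 genes; Mad2l1 and Kif23 were added after their values were seen. The members and lists were chosen with earlier results of these data known. On simulated data with 200 changed probe sets, 67% were recovered at a log2 change of 1 and 94% at 2. The simulation gave each probe set the same SD in both groups and drew probe sets independently. The members had a median SD of 0.79 in virgin and 0.17 in parous arrays, so these shares do not give the power for the members. Alternatives were another normalization, array weights, trend and robust estimation, the methods' t-test, the replicate block, other filters, thresholds and probe sets, and leaving out arrays. Leaving out virgin arrays 2 and 4, and own-locus probe sets for Pcna and Tk1, were added after seeing the data. RefSeq promoter windows were matched by symbol; Tpx2, Ccnd1, Aurkb, Mcm4, Kif20a, Ccnd2, Ccne2, Foxm1, Gmnn and Ccna2 had no entry.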

Additional observations from a re-analysis of the deposited data

Results flagged for a closer look

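Among 116 groups of 4 arrays (58 members in parous and virgin arrays), 2 held an array far from the other 3 by Dixon's ratio, where chance gives about 1 in 20. For Cdca8, parous array 3 was lowest at 5.07, and the other parous arrays had log2 values of 5.46 to 5.47 (ratio 0.954). For Rrm2, parous array 3 was lowest at 6.48, and the other parous arrays had log2 values of 7.03 to 7.08 (ratio 0.911). Parous array 3 was the lowest parous array in 38 of 58 members, against 4280 of all 19937 genes. The elevated pair among the virgin arrays is not picked out this way, since Dixon's ratio is small where 2 arrays lie apart together.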

How the results depend on the processing

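The count of members lower in parous arrays was 0 to 1 when single arrays were left out (1, Mad2l1, without virgin array 4), 1 without virgin arrays 2 and 4, and 31 at an unadjusted p under 0.05 with the fold and level criteria kept; it was 0 under every other alternative run, and 0 members were higher under any. Without virgin arrays 2 and 4 the median log2 fold change was -0.21 over the members and -0.39 over the mitosis genes, and Ccnd2 (-0.085, adjusted p = 0.943) and Pcna (-0.0015, adjusted p = 1.00) changed sign. When single arrays were left out, the median ranged from -1.07 to -0.64 over the members, from -1.50 to -0.82 over the mitosis genes and from -0.57 to -0.23 over the S phase genes. Of 256 values for 16 named members, 254 kept their direction and their side of the threshold. None of the 16 passed in the main fit, and settings that alter only the test or the adjustment leave the fold unchanged, so part of this count was fixed in advance. A fold that shrank but kept its sign also counts, such as that of Mcm6, -0.72 with all arrays and -0.15 without virgin arrays 2 and 4. The groups share replicate numbers, but whether these pair the arrays is not known: deviations of same-numbered arrays correlated at 0.12, 0.18, -0.06 and 0.31, and not every array correlated best with its own number. With the replicate block, 0 members passed (36 at an unadjusted p under 0.05, smallest adjusted p 0.189), and 24 probe sets were lower and 25 higher in all, against 55 lower and 83 higher without it. The methods' t-test gave 0 members (16 at an unadjusted p under 0.05) and 5 lower and 6 higher probe sets. No share over all genes was taken for the counts of 31, 36 and 16 members at an unadjusted p under 0.05. They therefore have no background under their own settings. With 4 pools per group, of which 2 virgin pools lay apart, single-gene tests of these genes had wide errors.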
